A study of Drosophila melanogaster with 2 samples.

Results

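The cells named Lamina are 88 of the 5056 annotated cells of third-instar (L3) Drosophila melanogaster larval brains, profiled as single cells in 2 droplet libraries. They were taken as the cells to which the authors' deposited metadata give the annotation Lamina, all of them in deposited cluster 20. The MeOH library held 43 of them among 2715 annotated cells (1.58%, exact 95% binomial interval 1.15 to 2.13) and the fresh library 45 among 2341 (1.92%, 1.41 to 2.56). A pair of other cell classes from the same libraries served for comparison. The optic lobe GMC, the ganglion mother cells that neuroblasts of the optic lobe produce, came to 98 cells in MeOH and 157 in fresh. The clusters that carry only a number, without clusters 1 and 31, came to 1711 cells in MeOH and 1702 in fresh and are called numbered clusters here.

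The MeOH library was made from methanol-fixed cells of a mix of the inbred DGRP lines 45, 136, 382, 409, 502, 639 and 761, and its cells carry a line assignment in the metadata. The fresh library came from unfixed cells of a DGRP-551 based hybrid. The labels give no other genotype, no treatment and no sex. The extraction text of both samples describes methanol fixation, so each sample was assigned by its fixation label. Strain, fixation and library differ together with 1 library each, so their parts in any difference between MeOH and fresh cells cannot be told apart. No replicate library exists and the clusters were made from the same genes, so no comparison between classes or libraries below has a test. Intervals are exact 95% Poisson or binomial intervals and cover counting error only.

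The lamina is the outermost neuropil of the fly visual system. Its precursor cells are born from the outer proliferation centre and meet the incoming axons of photoreceptors, which deliver Hedgehog and then the EGF receptor ligand Spitz. Hedgehog signalling brings the precursors through a last division and switches on Dachshund (dac), and EGFR signalling acts in their differentiation as the lamina neurons. Notch acts in many dividing neural cells, where its direct targets include the genes of the Enhancer of split (E(spl)) and Bearded (Brd) complexes.

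Levels are given as CPM, the unique molecular identifiers (UMIs) of a gene divided by all UMIs of the class and multiplied by 1000000, from counts summed over its cells. Lamina cells held 279195 UMIs in MeOH and 392716 in fresh. Their median depth was 4403 UMIs a cell in MeOH (2195 to 28695) and 6714 in fresh (3649 to 25308), against 2592 and 5392 in optic lobe GMC. The median mitochondrial share was 2.04% in MeOH and 1.35% in fresh Lamina cells. The libraries shared 11 cell barcodes, and 0 of them belonged to a Lamina cell.

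The marker of the class, dac, a transcription cofactor of the eye and lamina programme (chromosome 2L:16466512-16485998, minus strand, dm6), was high in the class. It had 584 CPM in MeOH Lamina cells (498 to 681) and 441 CPM in fresh Lamina cells (377 to 511). Optic lobe GMC had 22.3 CPM in MeOH and 2.15 CPM in fresh, and the numbered clusters 42.1 and 26.7 CPM. The ratio of Lamina cells to optic lobe GMC was 26.1 in MeOH (counting interval 12.4 to 66.0, on 7 GMC UMIs) and 205 in fresh (56.0 to 1708, on 2 GMC UMIs). Over the numbered clusters it was 13.9 in MeOH (11.4 to 16.8) and 16.5 in fresh (13.7 to 19.9). Among the 35 annotations with at least 10 cells in each library, Lamina had the highest dac level in both. The next was cluster 32 with 166 CPM in MeOH, and in fresh the cells labelled G-KC with 396 CPM (284 to 537), an interval that overlaps that of Lamina.

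A dac UMI was seen in 35 of 43 MeOH Lamina cells (81.4%) and in 38 of 45 fresh ones (84.4%). After each cell was thinned at random to 2000 UMIs, which every cell reached, the shares were 55.8% in MeOH (39.9 to 70.9) and 51.1% in fresh (35.8 to 66.3). Cells annotated as glia (AST, ENS and CTX), at median depths of 4816 and 8822 UMIs, gave the background: after thinning 1.94% of MeOH glia and 0% of fresh glia had a dac UMI (unthinned, 3.88% and 0%). The share in Lamina cells was above that background in both libraries.

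The precursor list held 7 genes with dac, and the other 6 also had their higher level in Lamina cells. For the comparisons a log2 ratio was taken with 10 CPM added to both classes, over genes with at least 20 UMIs in the 2 classes together in each library, and a gene counts as higher or lower when past 2 fold the same way in both libraries. Counting dac, all 6 precursor genes that passed this filter against optic lobe GMC were higher in Lamina cells and 0 lower, and of all 3054 genes tested 7.24% were higher. Several passed through their Lamina UMIs: in MeOH dac had 163 there and 7 in GMC, eya 69 and 1, and gcm2 40 and 1. A gene scarce in GMC could enter only by being high in Lamina cells, so this count was partly fixed by the filter. Against the numbered clusters 7 of 7 were higher, where 5.2% of 7152 genes were. The median log2 ratio of the precursor genes over optic lobe GMC was 3.73 in MeOH and 3.64 in fresh, beside -0.08 and -0.09 over all genes tested. The median over the numbered clusters was 3.66 and 3.62, beside -0.15 and -0.25 over all genes.

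Of these genes, tll, an orphan nuclear receptor, had 727 CPM in MeOH Lamina cells and 377 CPM in fresh ones, against 38.3 and 21.5 CPM in optic lobe GMC. The numbered clusters had 5.56 CPM of tll in MeOH and 0.745 CPM in fresh. For eya, the phosphatase and cofactor that partners So, Lamina cells had 247 and 183 CPM, optic lobe GMC 3.19 and 5.37 CPM (1 UMI in MeOH and 5 in fresh). Its ratio to the numbered clusters was 40.4 in MeOH (27.3 to 60.4) and 40.3 in fresh (28.3 to 57.7). The homeobox gene so had few UMIs, with 53.7 and 45.8 CPM from 15 and 18 UMIs, and did not pass the filter against optic lobe GMC. In MeOH cluster 31, which is outside the comparison, stood above Lamina cells for so with 68.9 CPM (33.0 to 127), and it was the next annotation below them for eya with 151 CPM (94.9 to 229). The bHLH-PAS gene sim had 71.6 and 99.3 CPM in Lamina cells, against 0 UMIs in MeOH GMC and 1 UMI in fresh GMC.

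The zinc-finger genes gcm and gcm2, known for glial fate and for lamina neuron formation, followed the same order. Lamina cells had 365 CPM of gcm in MeOH and 288 CPM in fresh, against 67.0 and 90.1 CPM in optic lobe GMC, a ratio of 5.45 in MeOH (3.38 to 9.18) and 3.19 in fresh (2.39 to 4.29). In fresh, the cells labelled ENS stood first with 316 CPM of gcm (259 to 383), an interval that overlaps that of Lamina cells (237 to 346). For gcm2 Lamina cells had 143 and 132 CPM, while MeOH GMC had 1 UMI and fresh GMC had 0, and with 3 UMIs taken as the limit for a class at 0, the fresh level was at least 41.1-fold higher. The paralogs gcm and gcm2 may share reads, which the counts cannot resolve. Glial contribution to gcm was not tested: the glial gene repo had 0 UMIs in MeOH and 1 UMI in fresh Lamina cells, against 162 and 171 CPM in glia, and the 10 genes of the glia list summed to 215 and 433 CPM, against 2997 and 2809 CPM in glia, with 4 and 2 of them at 0.

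**Figure D1:**
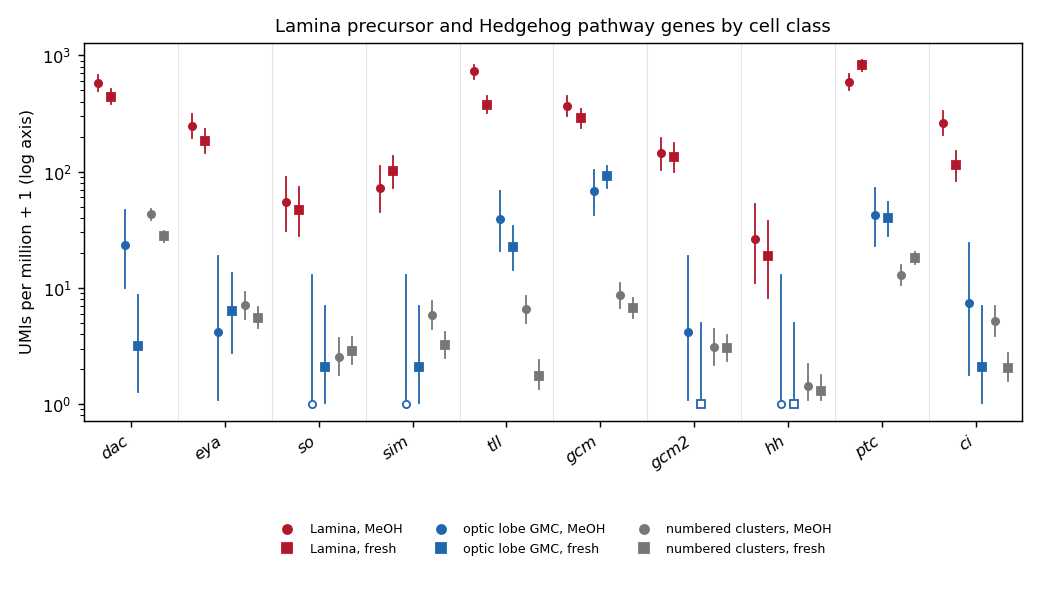
Levels (CPM plus 1, log axis) of precursor genes and of the Hedgehog genes hh, ptc and ci in Lamina cells, optic lobe GMC and numbered clusters; circles are MeOH and squares fresh, bars are exact 95% Poisson intervals, and open symbols are classes with 0 UMIs. Each Lamina point lies above the other classes of its gene, with dac at 584 and 441 CPM.

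Detection of the precursor genes was spread over the cells. Without thinning, 3 or more of the 7 genes had a UMI in most cells of both libraries: 4 MeOH cells and 7 fresh cells had all 7, while 0 MeOH cells and 1 fresh cell had none. At 2000 UMIs, dac and tll were seen together in 16 MeOH cells and 13 fresh cells and neither was seen in 8 and 13. For dac and eya the cells with both were 8 and 7. Per cell, the summed level of the list ran in MeOH Lamina cells over a median of 1987 CPM (227 to 4021), and in fresh ones over a median of 1453 CPM (0 to 3882). The median in optic lobe GMC and in the numbered clusters was 0 CPM in both libraries.

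Genes of the Hedgehog response stood among those higher in Lamina cells. Of the 4 Hedgehog pathway genes tested against optic lobe GMC, 3 were higher and 0 lower (median log2 ratio 2.30 in MeOH and 2.59 in fresh), and against the numbered clusters 4 of 11 were higher and 0 lower (0.40 and 0.54). The shares of all genes higher were 7.24% against GMC and 5.2% against the numbered clusters. Against GMC, ci passed the filter through its Lamina UMIs (73 and 44, against 2 and 1). The receptor gene ptc, itself a transcriptional target of the pathway, had 587 CPM in MeOH Lamina cells and 820 CPM in fresh ones, against 41.5 and 38.6 CPM in optic lobe GMC and 11.9 and 17.1 CPM in the numbered clusters. Its ratio to optic lobe GMC was 14.2 in MeOH (8.05 to 27.1) and 21.2 in fresh (15.01 to 30.8). The transcription factor gene ci had 261 and 112 CPM, against 2 UMIs in MeOH GMC and 1 UMI in fresh GMC. Su(fu), an inhibitor of Ci, had 57.3 and 58.6 CPM, against 22.3 and 10.7 CPM in optic lobe GMC. The co-receptor gene boi was the 1 other higher gene against the numbered clusters, with log2 ratios of 1.68 in MeOH and 1.06 in fresh. The remaining Hedgehog genes tested there were not past 2 fold in both libraries: smo, which transduces the signal, had 1.28 and 0.54, and the kinesin-like gene cos -1.12 and -0.84. At 2000 UMIs a ptc UMI was found in 55.8% of MeOH Lamina cells and 75.6% of fresh ones, and in 10.7% and 29.9% of glia.

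The ligand gene hh itself was scarce. Lamina cells had 25.1 CPM in MeOH (10.1 to 51.7) and 17.8 CPM in fresh (7.17 to 36.7), each from 7 UMIs, in 5 and 3 cells. Optic lobe GMC had 0 UMIs in both libraries, and the numbered clusters 3 and 4 UMIs. It did not pass the filter against either class. The photoreceptor genes chp, gl, sev, ro and trp had 0 UMIs in Lamina cells of both libraries, and norpA had 86.0 and 89.1 CPM, against 125 and 69.8 CPM in the numbered clusters.

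Genes of the EGFR pathway went both ways. Against optic lobe GMC, 5 of 14 genes were higher and 1 lower, where 4.22% of all genes were lower, and the median log2 ratio was 0.48 in MeOH and 0.45 in fresh. Against the numbered clusters 8 of 20 were higher and 3 lower, where 12.1% of all genes were lower (medians 0.41 and 0.49). Higher against both classes were the receptor gene Egfr, the ETS genes pnt and aop that act at the end of the pathway, and the feedback inhibitors aos and sty. Some passed the filter against GMC through their Lamina UMIs: in MeOH pnt had 88 there and 5 in GMC, and aos 90 and 2. The count of higher genes against GMC was therefore partly fixed by the filter. Egfr had 161 CPM in MeOH Lamina cells and 270 CPM in fresh ones, against 22.3 and 23.6 CPM in optic lobe GMC and 2.08 and 0.820 CPM in the numbered clusters.

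For aop, which encodes the ETS repressor Yan, Lamina cells had 1905 CPM in MeOH and 2139 CPM in fresh, against 44.7 and 17.2 CPM in optic lobe GMC. That is a ratio of 42.6 (25.2 to 78.5) and 125 (76.3 to 219), and the numbered clusters had 116 and 121 CPM. Its UMIs were found in 43 of 43 MeOH Lamina cells and 43 of 45 fresh ones. The activator pnt had 315 and 321 CPM in Lamina cells, against 16.0 and 3.22 CPM in optic lobe GMC, and the cells labelled ENS stood above them with 653 CPM in MeOH and 376 CPM in fresh. The secreted inhibitor aos had 322 and 754 CPM, against 6.39 and 38.6 CPM in optic lobe GMC. The cytoplasmic inhibitor sty had 523 and 481 CPM, against 99.0 and 59.0 CPM.

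The ligand gene and kinase cascade genes named next were not past 2 fold against optic lobe GMC. The ligand gene spi had 387 and 382 CPM in Lamina cells, against 294 and 322 CPM in optic lobe GMC, and was past 2 fold against the numbered clusters (102 and 116 CPM) but not against GMC. Ras85D had 258 and 227 CPM, against 265 and 356 CPM in optic lobe GMC. For rl, the MAP kinase gene, the values were 129 and 186 CPM, against 160 and 171 CPM. The 1 lower gene against optic lobe GMC was edl, which encodes an antagonist of Yan and Pnt, at 17.9 and 5.09 CPM in Lamina cells (5 and 2 UMIs) and 125 and 81.6 CPM in GMC. The 3 lower genes against the numbered clusters were the feedback gene kek1 (log2 ratio -3.23 in MeOH and -2.75 in fresh), the MAP kinase kinase gene Dsor1 (-1.02 and -1.27) and the phosphatase gene csw (-1.16 and -1.29). The protease gene rho, needed to release the ligand, had 43.0 CPM in MeOH Lamina cells and 260 CPM in fresh ones, in 5 and 10 cells.

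Notch target genes gave many of the largest ratios. All 11 genes of the E(spl) complex (chromosome 3R:25997621-26041008, a span of 43.4 kb) were tested against optic lobe GMC; 10 were higher in Lamina cells and 0 lower, with a median log2 ratio of 5.32 in MeOH and 4.83 in fresh. The exception, E(spl)mbeta-HLH, had 1415 and 1184 CPM in Lamina cells, against 399 and 739 CPM in optic lobe GMC. All 4 genes tested of the Brd complex (chromosome 3L:14945499-14976040, 30.5 kb) were higher, with medians of 4.90 and 4.98. The share of all genes higher than in GMC was 7.24%. Genes of both complexes that are scarce in GMC passed the filter through their Lamina UMIs, as with Brd (172 and 166, against 1 and 1). These 2 lists were drawn up after the values had been seen. Summed, the E(spl) complex took 32766 CPM in MeOH Lamina cells and 22467 CPM in fresh ones, against 1647 and 2840 CPM in optic lobe GMC, 260 and 107 CPM in the numbered clusters and 1030 and 1237 CPM in glia. The Brd complex took 3757 and 3443 CPM in Lamina cells, against 12.8 and 7.51 CPM in optic lobe GMC.

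**Figure D2:**
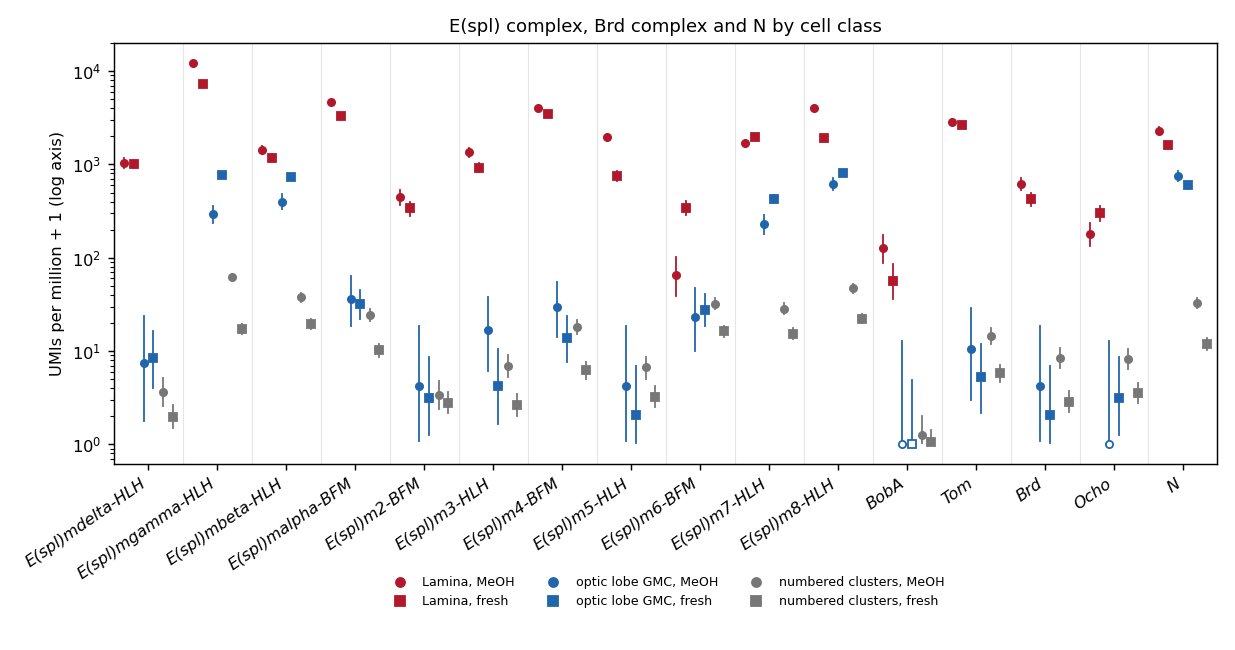
Levels (CPM plus 1, log axis) of the E(spl) complex, the Brd complex and N in Lamina cells, optic lobe GMC and numbered clusters; circles are MeOH, squares fresh, bars exact 95% Poisson intervals and open symbols 0 UMIs. All Lamina points lie above the GMC points of the same gene and library, and the gap is wide for E(spl)m4-BFM and Tom and narrow for E(spl)mbeta-HLH, E(spl)m8-HLH and N.

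The genes within the complexes differed in how far optic lobe GMC shared them. E(spl)mgamma-HLH, a bHLH repressor that acts in neural stem cells, had 12146 CPM in MeOH Lamina cells (11740 to 12561) and 7303 CPM in fresh ones (7038 to 7575). Optic lobe GMC had 294 and 775 CPM of it, and the next annotation was the type II neuroblasts with 2217 and 1099 CPM. The bHLH genes E(spl)m8-HLH and E(spl)m7-HLH were likewise present in GMC: E(spl)m8-HLH had 4040 and 1917 CPM in Lamina cells, against 613 and 811 CPM in GMC. By contrast E(spl)m3-HLH, E(spl)m5-HLH and E(spl)mdelta-HLH had few UMIs there. E(spl)mdelta-HLH, for example, had 1039 and 1019 CPM in Lamina cells, against 6.39 and 7.51 CPM in GMC (2 and 7 UMIs).

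Several Bearded-family genes also had wide gaps. They encode small proteins that inhibit the ubiquitin ligase Neuralized and so the signalling of Delta. E(spl)m4-BFM had 3976 CPM in MeOH Lamina cells and 3463 CPM in fresh ones, against 28.7 and 12.9 CPM in GMC, and E(spl)malpha-BFM had 4671 and 3277 CPM, against 35.1 and 31.1 CPM. Tom had 2837 and 2666 CPM, against 9.58 and 4.29 CPM in GMC from 3 and 4 UMIs, a ratio of 296 in MeOH (101 to 1439) and 621 in fresh (242 to 2284). E(spl)m6-BFM, of the same family, had a smaller gap in MeOH: 64.5 and 344 CPM in Lamina cells, against 22.3 and 26.8 CPM in GMC, a ratio of 2.89 in MeOH (1.15 to 8.17) and 12.8 in fresh (8.32 to 20.5). At 2000 UMIs a Tom UMI was seen in 86.0% of MeOH Lamina cells and 77.8% of fresh ones, against 1.94% and 2.60% of glia.

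Other genes of the Notch pathway had smaller ratios. In the pathway list, which holds 8 of the E(spl) genes, 8 of 17 were higher than in optic lobe GMC and 1 lower, and 11 of 20 were higher than in the numbered clusters and 0 lower. Over all genes tested, 7.24% were higher and 4.22% lower against GMC, and 5.2% higher and 12.1% lower against the numbered clusters. The receptor gene N had 2303 CPM in MeOH Lamina cells and 1594 CPM in fresh ones, against 750 and 598 CPM in optic lobe GMC, a ratio of 3.07 (2.64 to 3.58) and 2.67 (2.38 to 2.99). The ligand gene Dl had 294 and 204 CPM, against 354 and 260 CPM in GMC and 32.6 and 16.9 CPM in the numbered clusters. The gene spdo, which promotes Notch signalling after asymmetric divisions, was the lower one, at 10.7 and 20.4 CPM in Lamina cells and 220 and 398 CPM in GMC. Su(H), the DNA-binding effector of the pathway, had a log2 ratio to GMC of -0.72 in MeOH and -1.08 in fresh.

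**Figure D3:**
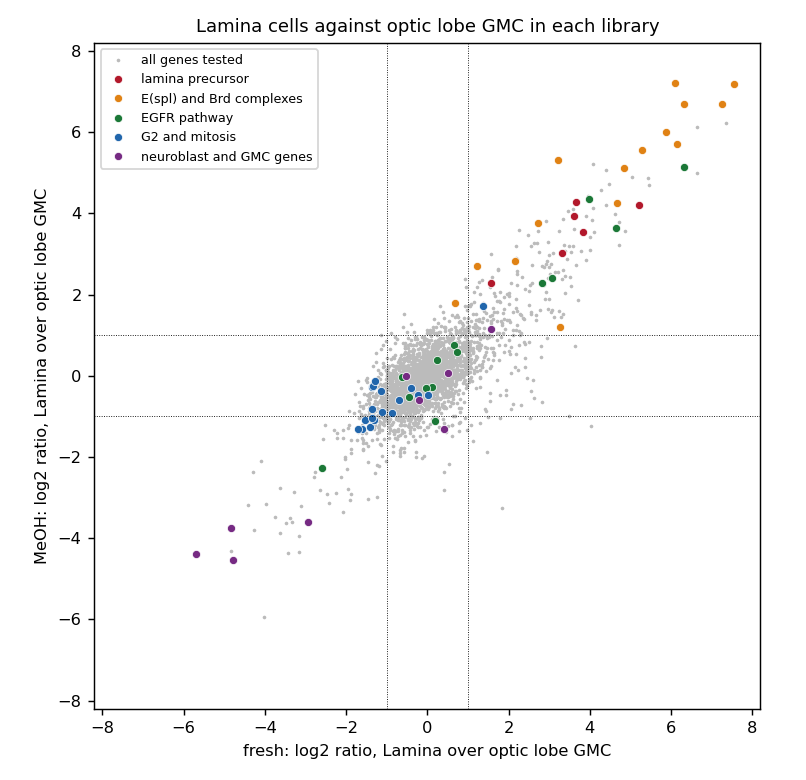
Log2 ratio of Lamina cells over optic lobe GMC in the MeOH library (vertical axis) against the fresh library (horizontal axis) for the 3054 genes tested; dotted lines mark 2 fold, and colours mark gene lists. The E(spl) and Brd genes and the precursor genes lie at the upper right. Several neuroblast and GMC genes lie at the lower left, but mira lies at the upper right. Genes of G2 and mitosis have medians of -0.70 in MeOH and -1.30 in fresh, with stg above 0 in both libraries.

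Outside the lists, the genes chosen by rank against optic lobe GMC (the 10 with the largest ratio in each direction, judged by the library with the smaller one) held 7 E(spl) and Brd genes, aop, twit and Mmp2 on the higher side. The Ly6-family gene twit had 734 CPM in MeOH Lamina cells and 1635 CPM in fresh ones and 0 UMIs in optic lobe GMC, so with the same limit it was at least 76.7-fold higher in MeOH and at least 508-fold in fresh. Its UMIs lay in 26 of 43 MeOH cells and 44 of 45 fresh ones. Mmp2, a membrane-anchored matrix metalloproteinase, had 2905 and 6162 CPM, against 31.9 and 51.5 CPM in GMC and 145 and 195 CPM in the numbered clusters. The Lamina level of twit and of Mmp2 was the highest of the 35 annotations in both libraries.

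On the lower side stood genes of the neuroblast and GMC programme. The Snail-family gene wor had 0 and 5.09 CPM in Lamina cells, against 223 and 405 CPM in optic lobe GMC. The proneural gene ase had 7.16 and 2.55 CPM, against 220 and 348 CPM, and the neurogenin homologue tap 10.7 and 5.09 CPM, against 421 and 777 CPM. For nerfin-1, a zinc-finger gene of newborn neurons, the values were 35.8 and 33.1 CPM, against 658 and 524 CPM. The T-box gene bi had 50.1 and 25.5 CPM, against 1226 and 374 CPM. The rest of the 10 were apt, CG13920, spdo and the noncoding RNAs CR45388 and CR43283, for which the sources used here do not say whether counting used the strand. Of the neuroblast list, 3 of 6 genes were lower than in optic lobe GMC and 1 higher: mira, the adaptor of asymmetric division, with 183 and 227 CPM in Lamina cells, against 76.6 and 69.7 CPM. Among all genes tested against GMC, 4.22% were lower and 7.24% higher.

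Genes of G2 and mitosis were mostly higher in Lamina cells than in the numbered clusters, and their median was lower than in optic lobe GMC. For all genes the shares were 5.2% higher and 12.1% lower against the numbered clusters, and 7.24% higher and 4.22% lower against GMC. Of the G2 and mitosis genes, 17 of 20 were higher than in the numbered clusters and 0 lower (median log2 ratio 1.73 in MeOH and 1.98 in fresh), and 1 of 18 was higher than in optic lobe GMC and 6 lower (-0.70 and -1.30). The 1 higher gene was stg, the Cdc25 phosphatase that triggers mitosis, with 2052 CPM in MeOH Lamina cells and 1352 CPM in fresh ones, against 613 and 516 CPM in GMC. Its ratio was 3.35 (2.84 to 3.96) and 2.62 (2.31 to 2.97), and Lamina ranked first of the 35 annotations in both libraries. Among the 6 lower genes, Cdk1 had 172 and 204 CPM in Lamina cells, against 367 and 542 CPM in GMC, and aurB 115 and 112 CPM, against 300.1 and 386 CPM. The 6 lower genes still had UMIs in Lamina cells, and the summed level of the list per cell had a median of 3527 CPM in MeOH (958 to 8713) and 2903 CPM in fresh (517 to 5823), with 0 cells at 0.

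Of the S-phase genes, 7 of 14 were higher than in the numbered clusters and 0 lower, while 0 of 10 were higher and 1 lower than in optic lobe GMC (Mcm3, a subunit of the replicative helicase, at 25.1 and 30.6 CPM in Lamina cells and 76.6 and 91.2 CPM in GMC). With 5.2% of all genes higher than in the numbered clusters and 4.22% lower than in GMC, 1 lower gene says little about the list. PCNA, the polymerase clamp gene, had 179 and 76.4 CPM in Lamina cells, against 204 and 206 CPM in GMC. The cyclin gene CycE had 100.3 and 109 CPM, against 47.9 and 33.3 CPM. The Cdk inhibitor gene dap, which is known to stop the cycle after the last division, had 365 and 199 CPM, against 364 and 291 CPM in GMC and 20.6 and 10.1 CPM in the numbered clusters.

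Many markers of differentiated neurons were lower than in the numbered clusters, where 12.1% of all genes were lower. In the mature neuron list this held for 3 of 6 genes, with 0 higher, and against optic lobe GMC 0 of 2 were lower. The counts that follow are against the numbered clusters. Genes scarce in Lamina cells could pass the filter through the numbered clusters alone, so these counts were partly fixed by it. The transmitter gene Vmat, for example, had 0 UMIs in Lamina cells, against 826 in MeOH and 2699 in fresh numbered clusters. Of the ion channel genes 12 of 15 were lower than in the numbered clusters and 0 higher (median log2 ratio -2.08 in MeOH and -1.64 in fresh; -1.70 and -1.48 with the classes at 0 set to 3 UMIs), and of the transmitter genes 6 of 6 were lower. The sodium channel gene para had 3.58 CPM in MeOH Lamina cells (1 UMI) and 5.09 CPM in fresh ones (2 UMIs in 1 cell), against 141 and 66.5 CPM in the numbered clusters. Among the 10 genes chosen by rank on the lower side were the GABA receptor gene Rdl, with 7.16 and 0 CPM, against 443 and 320 CPM, and nAChRalpha6, with 32.2 and 5.09 CPM, against 1002 and 542 CPM. The others were bru3, nrv3, vvl, Myo81F, dpr7, Antp, CG31221 and Frq1. On the higher side, besides 7 E(spl) genes and Tom, stood the laminin subunit gene wb, with 1780 and 652 CPM, against 5.56 and 1.12 CPM, and the noncoding RNA CR30009, with 4269 and 4701 CPM, against 47.9 and 26.2 CPM.

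Genes that name the later lamina neurons went both ways. Of the 8 in the list, 4 were lower than in the numbered clusters (ap, pdm3, bab1 and bab2) and 2 higher (bsh and zfh1), and 1 of 3 was higher and 1 lower than in optic lobe GMC. All genes together had 12.1% lower and 5.2% higher against the numbered clusters, and 4.22% lower and 7.24% higher against GMC. The homeobox gene bsh, of L4 and L5 neurons, had 28.7 CPM in MeOH Lamina cells (12.4 to 56.5; 8 UMIs in 4 cells) and 104 CPM in fresh ones (74.9 to 142; 41 UMIs in 7 cells), against 7.08 and 9.83 CPM in the numbered clusters. Lamina ranked first of the 35 annotations for bsh in both libraries, in MeOH level with cluster 5 at 28.5 CPM (14.7 to 49.9). The zinc-finger homeobox gene zfh1 had 208 and 148 CPM, against 86.2 and 50.4 CPM in optic lobe GMC and 43.6 and 33.6 CPM in the numbered clusters. It ranked first in MeOH and second in fresh, after the cells labelled SUR with 185 CPM (151 to 223). For svp, of L1 neurons, and erm, of L3 neurons, MeOH Lamina cells had 0 UMIs, which allows up to 10.7 CPM each, and fresh ones 17.8 and 12.7 CPM. Of the lobula plate list, another set of optic lobe neurons with dac, ato had 0 UMIs in Lamina cells of both libraries and acj6 3 and 2 UMIs. In that list SoxN, a Sox-family gene, was higher than in the numbered clusters, with 1157 and 868 CPM, against 307 and 161 CPM, and grn had 64.5 and 153 CPM, against 69.3 and 41.9 CPM.

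Adhesion genes included some with large ratios. Of the list, 6 of 14 were higher than in optic lobe GMC and 1 lower (median log2 ratio 0.43 in MeOH and 1.84 in fresh), where 7.24% of all genes were higher and 4.22% lower. The immunoglobulin-family gene Fas2 had 6913 CPM in MeOH Lamina cells and 3468 CPM in fresh ones, against 208 and 24.7 CPM in GMC and 1399 and 466 CPM in the numbered clusters. Of the nephrin and Neph1 group, whose products bind each other across cells, 3 genes were higher than in GMC: hbs (201 and 102 CPM, against 16.0 and 3.22 CPM), kirre (222 and 173 CPM, against 6.39 and 1.07 CPM) and rst (236 and 344 CPM, against 70.2 and 32.2 CPM). The fourth, sns, did not pass the filter, with 5 and 7 UMIs in Lamina cells and 4 and 2 UMIs in GMC. Genes scarce in GMC passed it through their Lamina UMIs, as with kirre (62 and 68, against 2 and 1). The count of higher adhesion genes was therefore partly fixed by the filter. The synaptic adhesion gene sdk, known in lamina columns, had 380 and 94.2 CPM, against 22.3 and 11.8 CPM. Sema1a, a guidance gene, was the lower one, with 337 and 260 CPM, against 1105 and 597 CPM. The netrin receptor gene unc-5 had 233 and 84.0 CPM, against 22.3 and 10.7 CPM.

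The Lamina cells were not uniform. A scrt UMI (scrt is a Snail-family gene of neuronal precursors) was found at 2000 UMIs in 14 of 43 MeOH cells (32.6%, 19.1 to 48.5) and 18 of 45 fresh ones (40.0%, 25.7 to 55.7), and in 7.77% and 2.60% of glia. Unthinned, 19 and 23 Lamina cells had one, and 20 and 8 glia. Summed over cells, scrt had 376 CPM in MeOH Lamina cells (rank 21 of the 35 annotations) and 899 CPM in fresh ones (rank 1). Its ratio to optic lobe GMC was 1.05 in MeOH (0.798 to 1.39) and 4.30 in fresh (3.60 to 5.14). The division of Lamina cells by a scrt UMI was chosen after the values had been seen. Most genes named for it were picked because they differed, and scrt itself is what divides the cells. The median depth before thinning was 4557 UMIs with scrt and 4206 without in MeOH, and 6586 with and 6714 without in fresh. In MeOH the cells with scrt came from 5 lines, 6 of them from DGRP-761.

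Cells with scrt had more of Dl and of several neuronal genes. At equal depth Dl had 929 CPM in MeOH cells with scrt (607 to 1361) and 138 CPM in those without (59.5 to 272), and in fresh 444 CPM with scrt (254 to 722) and 55.6 CPM without (11.5 to 162). The Lamina gene twit had 1500 CPM with and 276 CPM without in MeOH, and 2917 CPM with and 852 CPM without in fresh. The RNA-binding gene elav had 1429 and 397 CPM in MeOH, and 1444 and 463 CPM in fresh, with scrt first. The pan-neuronal pros had 2214 and 655 CPM in MeOH, and 1417 and 111 CPM in fresh; in the unthinned sums 1 cell held 62.9% of its MeOH Lamina UMIs and 1 cell 82.6% of its fresh ones.

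Signalling targets followed the same division in part. The EGFR feedback gene sty had 1036 CPM with scrt and 397 CPM without in MeOH, and 944 CPM with and 241 CPM without in fresh. For ptc the values were 964 CPM with and 397 CPM without in MeOH, and 1333 CPM with and 667 CPM without in fresh. The intervals of ptc with and without scrt do not overlap in either library. They pool UMIs over cells and leave out the spread between cells, and the division was chosen with the values known, so this is a description only. The E-cadherin gene shg ran the other way, with 71.4 CPM in cells with scrt and 345 CPM in those without in MeOH, and 111 and 352 CPM in fresh; these intervals overlap in both libraries. Likewise tll had 393 CPM with and 655 CPM without in MeOH, and 194 CPM with and 556 CPM without in fresh, with intervals that overlap in both libraries. N, aop and E(spl)mgamma-HLH differed by under 1.5 fold between the cells with and without scrt.

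**Figure D4:**
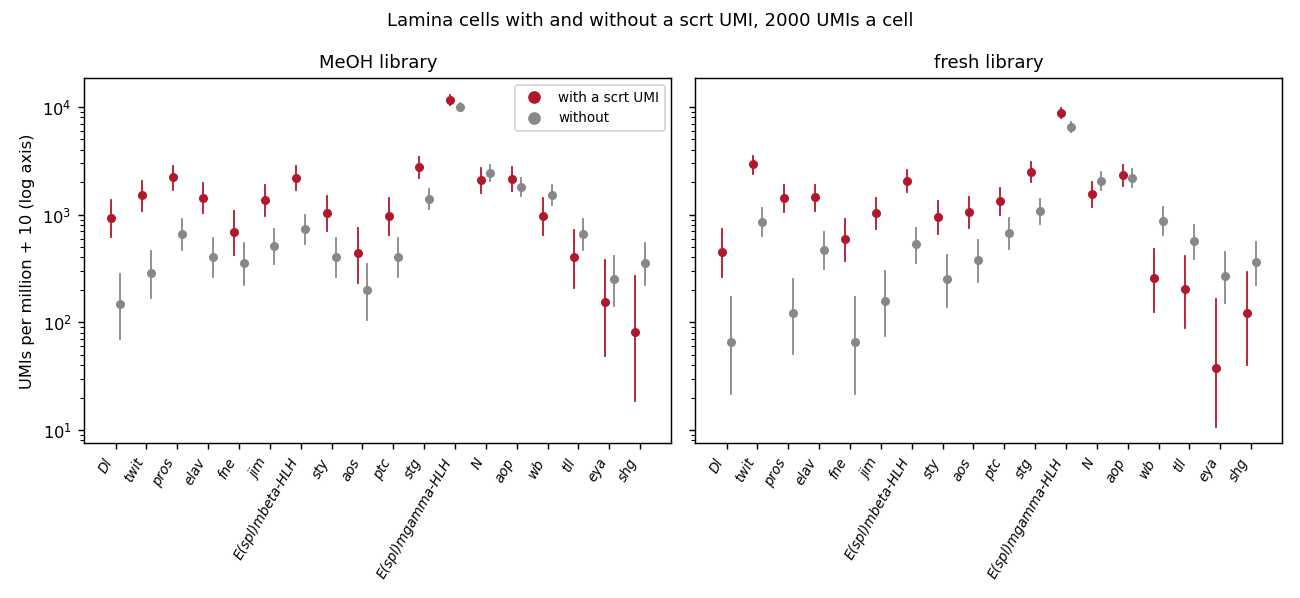
Levels (CPM plus 10, log axis) in Lamina cells with a scrt UMI (red) and without (grey) after thinning to 2000 UMIs a cell, in MeOH (left) and fresh (right); bars are exact 95% Poisson intervals. Dl, twit, elav and sty lie higher in cells with scrt in both libraries, shg lower, and N and aop at similar levels.

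The share of Lamina cells varied among the DGRP lines of the MeOH library, with wide intervals. DGRP-382 gave 7 of its 210 cells (3.33%), DGRP-761 gave 17 of 580 (2.93%) and DGRP-45 gave 7 of 295 (2.37%), whereas DGRP-409 gave 1 of 410 (0.244%) and DGRP-502 gave 2 of 384 (0.521%). DGRP-136 gave 5 of 449 (1.11%) and DGRP-639 gave 4 of 387 (1.03%). The intervals of DGRP-761 (1.72 to 4.65) and DGRP-409 (0.00617 to 1.35) do not overlap, but those of all other pairs of lines do. DGRP-382, with the highest share (1.350 to 6.75), overlaps DGRP-409 (up to 1.351), and DGRP-761 overlaps DGRP-502 (up to 1.87). In the 4 lines with at least 5 Lamina cells dac had 355 CPM in DGRP-45, 395 CPM in DGRP-136, 798 CPM in DGRP-382 and 579 CPM in DGRP-761. Each line is 1 pool of cells in 1 library, so these values have no replicate check.

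Levels of some E(spl) genes differed among the lines. E(spl)mgamma-HLH had 6613 CPM in Lamina cells of DGRP-45, 5753 CPM in DGRP-136, 5011 CPM in DGRP-382 and 17122 CPM in DGRP-761 (16328 to 17945). The lines with under 5 Lamina cells had 15508 CPM (409, 1 cell), 20758 CPM (502, 2 cells) and 11540 CPM (639, 4 cells), and pooled 17073 CPM (16009 to 18188), an interval that overlaps that of DGRP-761. In DGRP-502, 1 cell held 18.8% of all MeOH Lamina UMIs of the gene, and its other cell had 2146 CPM. Without that 1 cell the pool had 11646 CPM. E(spl)malpha-BFM had 2888, 1405 and 1240 CPM in DGRP-45, DGRP-136 and DGRP-382, 6780 CPM in DGRP-761 and 7014 CPM (6339 to 7742) in the pool.

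E(spl)m8-HLH did not set DGRP-45 apart from DGRP-761, with 4409 and 4592 CPM, and had 1918 CPM in the 1 cell of DGRP-409. E(spl)m5-HLH gave a less clear picture. Summed over cells it had 2581 CPM in DGRP-761, against 1470, 1405 and 1291 CPM in DGRP-45, DGRP-136 and DGRP-382, and 1119 CPM in the 1 cell of DGRP-409. Its median over single cells was 1009 CPM in DGRP-761, against 1143, 1095 and 1169 CPM in DGRP-45, DGRP-136 and DGRP-382, and without the cell with the most UMIs the sum in DGRP-761 was 2058 CPM. The receptor gene N ran from 1641 CPM in DGRP-639 to 2718 CPM in DGRP-382. Without DGRP-761 the MeOH level of E(spl)mgamma-HLH was 9285 CPM from 26 cells, in place of 12146 CPM, and that of dac 587 CPM, in place of 584 CPM. The 7 line values were set side by side after those of the 4 lines with at least 5 cells had been seen.

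**Figure D5:**
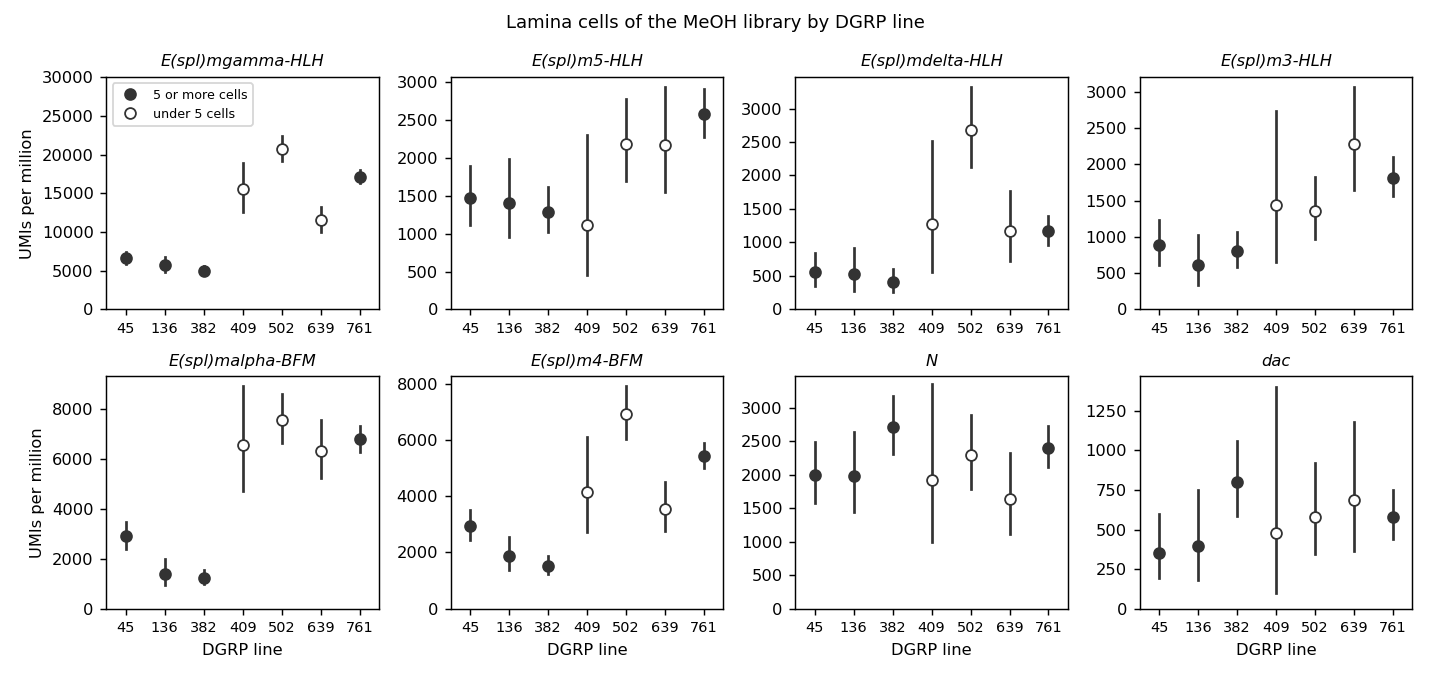
Levels (CPM, linear axis from 0) of 6 E(spl) genes, N and dac in MeOH Lamina cells of the 7 DGRP lines; bars are exact 95% Poisson intervals, and open symbols are lines with under 5 Lamina cells. For E(spl)mgamma-HLH and E(spl)malpha-BFM the lines 45, 136 and 382 lie below the other 4, and for N and dac the intervals of most lines overlap.

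Between the libraries, 154 of 3317 genes (4.64%) were past 2 fold higher in MeOH than in fresh Lamina cells and 123 (3.71%) lower, and the median log2 ratio of all tested was 0.01. Of these 277 genes, 224 had the same direction in all other annotated cells and 40 were past 2 fold there too. The same shares over all 3317 genes are not given here, so these counts have no baseline. The 5 highest included ribosomal and mitochondrial RNA. The mitochondrial rRNA mt:lrRNA had 3768 CPM in MeOH Lamina cells and 341 CPM in fresh ones, and 4854 and 335 CPM in the other cells of the libraries. pre-rRNA:CR45845 had 233 CPM in MeOH Lamina cells, CG14300 82.4 CPM, Peritrophin-15a 129 CPM and CG43085 143 CPM, against 0, 0, 5.09 and 12.7 CPM in fresh ones. The lowest were lbm, Mlc2, Fas3, Cngl and Rbp6. Rbp6, an RNA-binding gene, had 129 CPM in MeOH and 1085 CPM in fresh Lamina cells, but in fresh its UMIs lay in 10 cells and 1 of them held 34.3%. In the other cells Rbp6 had 1078 CPM in MeOH and 749 CPM in fresh.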

How the data were processed

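Single-cell counts of 2 libraries were used as deposited: per the submitters' processing notes Cell Ranger and Seurat were used with build dm6, and each of the 2 matrices holds UMI counts of 17473 gene rows, deposited by the authors without normalization. The authors' metadata give each cell's annotation, cluster and DGRP line and a mitochondrial percent, deposited as such. Barcodes outside the metadata (1192 in MeOH, 76 in fresh) entered no comparison. Counts were summed per class and library and scaled to CPM (Python 3.11.15, numpy 2.4.6, scipy 1.17.1); log2 ratios used a pseudocount of 10 CPM, a minimum of 20 UMIs in each library and a threshold of 2 fold in both. The calling step was tested on simulated data. edgeR 4.0.16 gave TMM factors for an alternative only. Named genes were the 10 with the largest ratio in each direction per comparison (5 between libraries), the tested members of the precursor, lamina neuron, Hedgehog, EGFR and lobula plate lists, and para; genes named beyond these rules were chosen after their values were seen. Members and lists were chosen with earlier results of these data known. No doublet caller was run; leaving out Lamina cells of over 2 times their library's median UMIs (6 in MeOH, 8 in fresh) was an alternative. Gene positions are from the Ensembl annotation of the same build, in which 306 of 311 symbols of lists and named genes were found. Shares thinned to 2000 UMIs used 1 random draw.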

Additional observations from a re-analysis of the deposited data

Results flagged for a closer look

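In Lamina cells of the MeOH library, 22 sets of line values were checked with Dixon's gap criterion for a single line standing apart (gap to the next line above 0.829 of the range for 4 lines, 0.568 for 7); chance alone marks about 1 in 20 such sets. E(spl)mgamma-HLH at 17122 CPM and E(spl)m5-HLH at 2581 CPM in DGRP-761 passed among the 4 lines with at least 5 Lamina cells, with gaps of 0.868 and 0.862 of the range. The lines left out of that check do not leave DGRP-761 apart for E(spl)mgamma-HLH: DGRP-409, DGRP-502 and DGRP-639 together had 17073 CPM, and for E(spl)m5-HLH they had 2065 CPM. The gaps of E(spl)mdelta-HLH (0.803) and E(spl)m3-HLH (0.773) did not. In neuroblasts of DGRP-761 E(spl)mgamma-HLH had 2268 CPM, against 790 CPM in DGRP-45, 1271 CPM in DGRP-136 and 728 CPM in DGRP-382. E(spl)m5-HLH did not set DGRP-761 apart there, with 154 CPM, against 114, 151 and 135 CPM, and overlapping intervals. These neuroblast values were not split by type. In MeOH, type II neuroblasts had 2217 CPM of E(spl)mgamma-HLH and optic lobe type I neuroblasts 1007 CPM. Whether the mix of types differed among the lines was not tested.

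Of the genes on the lists, 2 went past 2 fold in opposite ways in the libraries, and these differences between libraries were not tested. Over all genes tested, 9 of 3054 did so against optic lobe GMC and 3 of 7152 against the numbered clusters. Fas3 had a log2 ratio of Lamina cells over optic lobe GMC of -3.26 in MeOH and 1.83 in fresh, and over the numbered clusters of -2.20 in MeOH, while in fresh it had 300.5 CPM in Lamina cells and 145 CPM in the numbered clusters. CadN had -1.88 in MeOH and 1.46 in fresh over optic lobe GMC. Of the fresh Lamina UMIs, 1 cell held 35.6% for Fas3 and 46.2% for CadN. MeOH optic lobe GMC also had more of pros, at 2576 CPM, than fresh ones at 340 CPM; its part in these values was not tested.

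Barcodes outside the metadata carried 3 of 4 Lamina genes examined above their level in the annotated cells. The fourth, dac, did not stand apart, with 51.5 CPM (46.3 to 57.2) in MeOH and 33.6 CPM (27.8 to 40.2) in fresh, against 50.2 and 32.4 CPM in annotated cells. In MeOH, 1192 such barcodes had 68.6 CPM of tll, 20.3 CPM of eya and 649 CPM of E(spl)mgamma-HLH, against 40.4, 16.2 and 516 CPM in annotated cells. In fresh, 76 such barcodes, with a median of 40565 UMIs, had 72.3 CPM of tll, 23.5 CPM of eya and 930 CPM of E(spl)mgamma-HLH, against 17.5, 9.16 and 286 CPM.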

How the results depend on the processing

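Each alternative changed 1 choice. Of the 220 log2 ratios of named genes past 2 fold, all had the same sign in every alternative that gives them, and between 185 (pseudocount of 50 CPM) and 220 were still past 2 fold. Counts of list genes moved as follows, with Lamina cells set against optic lobe GMC or the numbered clusters; the cause was not tested. With a pseudocount of 1 CPM, S-phase genes were 1 higher and 2 lower against GMC and 12 higher against the numbered clusters, Hedgehog genes 3 lower and lobula plate genes 2 lower against the numbered clusters, 1422 genes were lower than there, the fresh log2 ratio of dac was 3.996 and 200 genes were lower in MeOH than in fresh cells. With 50 CPM, 139 genes were higher and 58 lower against GMC, 189 higher and 329 lower against the numbered clusters, and 45 higher and 38 lower in MeOH. Against GMC, S-phase genes were then 0 lower, G2 and mitosis genes 2 lower and lamina neuron genes 0 higher and 0 lower, and dac had a fresh log2 ratio of 3.23. Against the numbered clusters, Hedgehog genes were 2 higher, EGFR genes 1 lower, S-phase genes 2 higher, G2 and mitosis genes 7 higher, lamina neuron genes 1 higher and 1 lower, and dac had 2.78 in MeOH and 2.68 in fresh.

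With at least 50 UMIs, 116 genes were higher and 85 lower against GMC, and 66 higher and 56 lower in MeOH; Hedgehog genes were 1 higher, and EGFR, S-phase and lamina neuron genes 0 lower against GMC. With no filter, 360 genes were higher against GMC, S-phase genes 2 lower, lamina neuron genes 2 higher, and 389 genes were higher and 312 lower in MeOH. With the mean over cells, lobula plate genes were 1 higher against GMC and 2 lower against the numbered clusters, and EGFR genes 1 lower. Without cells of over 2 times the median UMIs, S-phase genes were 1 higher and 0 lower and lobula plate genes 1 higher against GMC, and Hedgehog genes 1 lower, lamina neuron genes 1 higher and lobula plate genes 2 lower against the numbered clusters. With clusters 1 and 31 kept, lobula plate genes were 2 lower. TMM factors moved no such count by over 1.5 times.

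Leaving out each DGRP line in turn, lower G2 and mitosis genes against GMC ranged from 3 (without DGRP-761) to 7, higher S-phase genes from 0 to 1 (without DGRP-45 or DGRP-502), higher lobula plate genes from 0 to 1 (without DGRP-45) and lower lamina neuron genes from 0 (without DGRP-136, DGRP-639 or DGRP-761) to 1. Against the numbered clusters, lower EGFR genes ranged from 1 (without DGRP-45) to 3, lower Hedgehog genes from 0 to 1 (without DGRP-761), higher lamina neuron genes from 1 (without DGRP-502 or DGRP-761) to 2 and lower lobula plate genes from 1 to 2 (without DGRP-382).

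The share of Lamina cells with a dac UMI was 39.5% in MeOH and 33.3% in fresh at 1000 UMIs, and 81.4% and 84.4% unthinned. At 3000 UMIs 11 MeOH cells were left out. With 43 and 45 cells, genes under about 20 UMIs have wide intervals, and 1 cell can hold much of a level. No paired analysis was possible because each group has 1 library.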

Other observations

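Genes of the neuroepithelium that precedes both neuroblasts and lamina precursors were partly present in Lamina cells. Against the numbered clusters 3 of 11 genes of that list were higher and 3 lower (median log2 ratio -0.05 in MeOH and -0.52 in fresh), and against optic lobe GMC 0 of 5 were higher and 0 lower. Of all genes, 5.2% were higher and 12.1% lower than in the numbered clusters. The E-cadherin gene shg had 251 CPM in MeOH Lamina cells and 247 CPM in fresh ones, against 24.4 and 13.1 CPM in the numbered clusters and 192 and 191 CPM in optic lobe GMC. The other higher genes were the polarity gene baz and the innexin gene ogre. The 3 lower were sdt, Rx and Optix, a homeobox gene of the proliferation centre, which had 1 UMI in MeOH and 0 UMIs in fresh Lamina cells, against 71.7 and 75.1 CPM in the numbered clusters.

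Of the 6 temporal factors of medulla neuroblasts, 3 were higher and 2 lower than in the numbered clusters, where 12.1% of all genes were lower. Against optic lobe GMC 1 of 5 was higher and 2 lower, where 7.24% of all genes were higher and 4.22% lower. That list also holds tll, given above with the precursor genes, at 727 CPM in MeOH and 377 CPM in fresh Lamina cells. The Sox-family gene D had 0 CPM in MeOH and 10.2 CPM in fresh Lamina cells, against 192 and 170 CPM in optic lobe GMC. The forkhead gene slp1 had 86.0 and 456 CPM, against 13.6 and 20.6 CPM in the numbered clusters and 144 and 289 CPM in optic lobe GMC. The medulla gene hth had 100.3 and 102 CPM, against 1461 and 1057 CPM in the numbered clusters. Among stress genes, Hsp26 had 7848 and 9541 CPM in Lamina cells, against 1446 and 2785 CPM in the numbered clusters and 2401 and 7633 CPM in optic lobe GMC. Of the heat-shock list 3 of 7 genes were higher than in the numbered clusters and 0 of 7 than in optic lobe GMC, where 5.2% and 7.24% of all genes were.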
